A study of Mus musculus with 12 samples.

Results

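The 10 genes Gpnmb, Trem2, Apoe, Apoc2, Lpl, Abca1, Abcg1, Fabp4, Fabp5 and Plin2, known from macrophages that take up and handle lipid, were followed in cultured lung epithelial cells that lack G protein alpha subunits. Probe sets annotated to 1 of these genes alone were taken, which gave 20 probe sets for 10 of the 18193 genes measured. The genes were picked with results of these arrays known. Which measured values led to the choice is not stated. The large differences of Gpnmb and Apoc2, after which the set is named, all involve Gnaq/Gna11 or Gna11 arrays, so each comparison that uses those arrays is given as a description. How many members passed the threshold of the fit over all genes is stated there only beside the share of all genes that did, and nothing is read from it as a test of a member. The difference of Gna12/Gna13 from Gna12 cells uses neither group, while its p-values and intervals share the spread of all 12 arrays. It is read as a test only on the assumption that Gna12/Gna13 and Gna12 arrays did not lead to the choice, which cannot be checked. For Apoc2 this assumption is doubtful, since its large differences also use Gna12 or Gna12/Gna13 arrays. The same may hold for other members such as Fabp4.

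The arrays hold RNA of alveolar epithelial cells of type II, which make surfactant, taken from mouse lungs and kept on collagen for 7 days with no treatment named. There were 4 genotypes with 3 arrays each, namely Gnaq/Gna11 double knockout, Gna11 knockout, Gna12/Gna13 double knockout and Gna12 knockout. Both groups of the first pair lack Gna11, both of the second lack Gna12, and no wild-type cells were analysed here. Cells were fed every 3 days with a bronchial epithelial medium that held 10 μg/ml keratinocyte growth factor and no hydrocortisone, and 10 ng of RNA was amplified per sample. The labels do not state the age or strain of the mice, how the genes were deleted, or whether the 3 arrays of a group came from separate animals. The p-values therefore rest on the spread among these arrays alone, and that spread may be technical.

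Macrophages that engulf dying cells, surfactant or lipoproteins turn on genes for sensing, digesting, storing and exporting lipid. Trem2 is a surface receptor for lipids and apolipoproteins that signals through the adaptor Tyrobp, and Gpnmb is a membrane glycoprotein of lysosome-rich phagocytes. Lipoprotein lipase (Lpl) splits triglycerides with apolipoprotein C-II (Apoc2) as its cofactor. The transporters Abca1 and Abcg1 pass cholesterol to lipoproteins such as those carrying Apoe, and the nuclear receptor LXR is a known activator of Abca1, Abcg1, Apoe, Apoc2 and Lpl in mouse macrophages. Fabp4 and Fabp5 carry fatty acids in the cytosol, Plin2 coats lipid droplets, and PPAR nuclear receptors are known activators of Fabp4 and Plin2. In the lung, alveolar macrophages clear the surfactant that epithelial cells secrete.

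The stretches just upstream of Gpnmb, Trem2 and Apoc2 are shown because these genes were highest in different genotypes, Gpnmb and Trem2 in Gnaq/Gna11 cells and Apoc2 in both groups lacking Gna12. They are from RefSeq (build GRCm38.p6), end at the base before the annotated start, and run 5′ to 3′ on the gene's strand, chr6:49036268-49036517 (plus strand) for Gpnmb, chr17:48346151-48346400 (plus strand) for Trem2 and chr7:19677942-19678083 (minus strand) for Apoc2, whose stretch stops at the neighbouring gene Apoc4. Capitals mark matches, on either strand, to AGGTCA (a core element of nuclear receptors such as LXR and PPAR) or GAGGAAG (a PU.1 core). They also mark CACGTG (an E-box of the MITF and TFEB family) and TGANTCA. The last is an AP-1 pattern loosened to any middle base, so a match need not be an AP-1 site.
Gpnmb: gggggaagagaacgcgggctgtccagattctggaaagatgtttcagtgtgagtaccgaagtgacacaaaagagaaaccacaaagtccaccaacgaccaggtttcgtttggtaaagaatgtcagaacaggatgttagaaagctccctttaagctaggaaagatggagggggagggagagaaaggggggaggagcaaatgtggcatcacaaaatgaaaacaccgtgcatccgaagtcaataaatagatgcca
Trem2: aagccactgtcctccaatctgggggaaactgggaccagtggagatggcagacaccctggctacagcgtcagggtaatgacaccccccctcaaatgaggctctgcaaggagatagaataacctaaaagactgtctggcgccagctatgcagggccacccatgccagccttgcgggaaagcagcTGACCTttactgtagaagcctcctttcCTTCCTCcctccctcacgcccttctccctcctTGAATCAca
Apoc2: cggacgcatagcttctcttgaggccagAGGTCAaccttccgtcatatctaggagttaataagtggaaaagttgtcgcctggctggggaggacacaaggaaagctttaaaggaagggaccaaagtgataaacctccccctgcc
The promoter table held 8 windows for 6 of the 10 genes (Gpnmb, Trem2, Apoe, Apoc2, Abca1 and Plin2), each 300 bases long with 250 bases before the start. In these windows Trem2 had the core AGGTCA, the PU.1 core and the loosened pattern TGANTCA, which reads TGAATCA there. Apoc2 had the nuclear receptor element at 2 places, Plin2 had the E-box and the nuclear receptor element, and Abca1 had the E-box. Gpnmb had the loosened pattern just past its start, outside the stretch printed. Of all 32851 windows in the table, 16.3% held the nuclear receptor element, 13.6% the PU.1 core, 7.81% the loosened pattern TGANTCA and 7.15% the E-box.

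Array medians lay between 5.03 and 5.11 on the log2 scale. For each targeted gene 1 probe set was lower in all its knockout arrays than in all others (of 7 for Gnaq, 2 for Gna11, 5 for Gna12 and 7 for Gna13), and a probe set outside a deleted stretch checks nothing. Epithelial markers were present, with at least 13 of 14 type II markers above the median of each array and Sftpc at 12.78 to 13.38. Leukocyte transcripts were present as well, with 18 or 19 of 20 pan-leukocyte markers above the median in each array and Ptprc (CD45) at 8.54 to 10.42. Replicate 2 of the Gna11 cells had the lowest array weight, 0.489. The labels carry a code whose number is the same within each pair of genotypes and differs between the pairs, so what that code stands for and the pair cannot be told apart.

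The 10 genes did not follow 1 pattern across the genotypes. Gpnmb, Trem2 and Plin2 had their highest group mean in Gnaq/Gna11 cells, while Apoc2, Lpl and Abcg1 had theirs in Gna12 cells and Fabp4 and Abca1 theirs in Gna12/Gna13 cells. Apoe had its lowest mean in Gna11 cells and similar means in the other groups, though its arrays spread widely in both groups lacking Gna12. Fabp5 had lower means in the groups lacking Gna12. In bulk RNA, fewer cells of a type and less RNA per cell cannot be told apart, and none of the values says which cells of a culture held the transcripts.

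**Figure D1:**
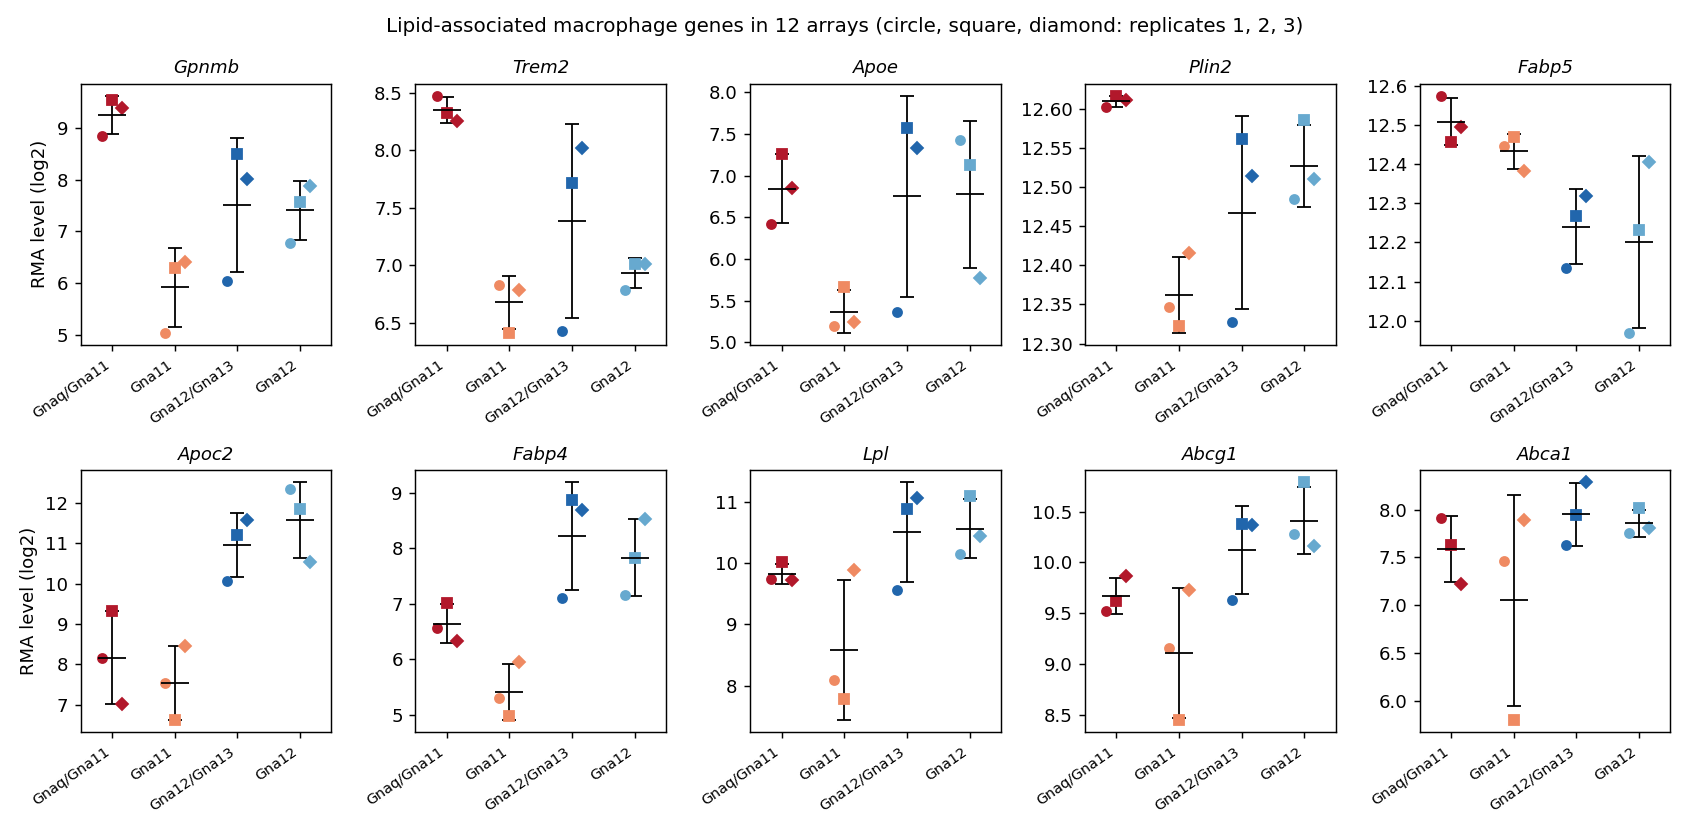
Level of each of the 10 genes (vertical axes, log2 RMA level, own scale per panel) in the 12 arrays, grouped by genotype (horizontal axes). Circles, squares and diamonds are replicates 1, 2 and 3, dashes are group means and bars are SD (n = 3). Gpnmb and Trem2 are higher in each Gnaq/Gna11 array than in all others, though the highest Gna12/Gna13 arrays come near. Apoc2 is higher in the 6 arrays lacking Gna12 than in the rest, and replicate 1 of Gna12/Gna13 is the lowest of its group in all 10 panels.

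Gpnmb, the glycoprotein of phagocytic lysosomes, read 8.84, 9.54 and 9.39 in the 3 Gnaq/Gna11 arrays, against 5.03, 6.29 and 6.41 in Gna11 arrays. Every double knockout array was well above every single knockout array, and the means were 9.26 ± 0.369 in Gnaq/Gna11 and 5.91 ± 0.765 in Gna11 cells (SD, n = 3 each). The difference was 3.35 ± 0.588 (SE of the limma fit), or 10.2-fold. In the other pair it read 6.04, 8.50 and 8.001 in Gna12/Gna13 arrays and 6.77, 7.57 and 7.88 in Gna12 arrays, which overlapped. All 6 of these lay below the Gnaq/Gna11 arrays, and replicate 1 of the Gna12/Gna13 cells lay within the range of the Gna11 arrays. The second Gpnmb probe set read 2.80 to 3.53 in the 12 arrays, under the median of each, where values carry little information.

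Trem2, the lipid-sensing receptor, read 8.48, 8.32 and 8.26 in Gnaq/Gna11 arrays, against 6.83, 6.41 and 6.79 in Gna11 arrays. The mean was 8.35 ± 0.113 in Gnaq/Gna11 and 6.68 ± 0.231 in Gna11 cells, a difference of 1.67 ± 0.339 (SE), or 3.19-fold, with no overlap. In Gna12/Gna13 arrays it read 6.43, 7.71 and 8.02, a wide spread, against 6.78, 7.01 and 7.01 in Gna12 arrays. Gna12 replicates 2 and 3 had the same deposited value here, as at 51 probe sets in all, and any 2 arrays shared 19 to 79 such values, counted as equal when every deposited digit matched (tolerance 0). The suffix of the brighter Trem2 probe set marks possible matches to several transcripts. The second read 5.23 to 5.65 over the 12 arrays and overlapped between the genotypes, so the probe sets of Trem2 disagree.

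Among the apolipoproteins, Apoc2 separated the genotypes by pair. RefSeq also lists a readthrough gene that joins Apoc4 and Apoc2, and the array was not shown to tell its transcript from that of Apoc2. It read 10.06, 11.20 and 11.57 in Gna12/Gna13 arrays and 12.34, 11.85 and 10.53 in Gna12 arrays. In Gnaq/Gna11 arrays it read 8.17, 9.32 and 7.03, and in Gna11 arrays 7.54, 6.64 and 8.47. The 6 arrays lacking Gna12 were thus all higher than the 6 lacking Gna11, while the groups within each pair overlapped. The mean was 11.6 ± 0.933 in Gna12 and 7.55 ± 0.914 in Gna11 cells, a difference of 4.02 ± 0.668 (SE), or 16.3-fold. Between the double knockouts the means were 8.17 ± 1.14 in Gnaq/Gna11 and 10.9 ± 0.792 in Gna12/Gna13 cells, a difference of -2.77 ± 0.668.

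Apoe, a ligand of lipoprotein receptors, read 6.42, 7.26 and 6.85 in Gnaq/Gna11 arrays, against 5.19, 5.66 and 5.25 in Gna11 arrays. The groups did not overlap and differed by 1.48 ± 0.559 (SE). It read 5.36, 7.57 and 7.33 in Gna12/Gna13 arrays and 7.43, 7.12 and 5.77 in Gna12 arrays, so 1 array of each of these groups lay near the Gna11 level and the other 4 above 7. Apoe and Apoc2 lie in 1 gene cluster on chromosome 7 with Apoc4 and Apoc1 between them, and the genes of the cluster differed in their order over the genotypes. Apoc1, an apolipoprotein of the cluster that is not among the 10 genes, was higher in Gnaq/Gna11 than in Gna12/Gna13 cells, where Apoc2 was lower. Its mean was 13.1 ± 0.0512 in Gnaq/Gna11 and 12.3 ± 0.132 in Gna12/Gna13 cells, a difference of 0.81 ± 0.0880 (SE, limma adjusted p = 0.000854). Apoc4 read 4.69 to 6.20 and did not pass in Gnaq/Gna11 against Gna11 cells at 0.29 ± 0.332 or in Gnaq/Gna11 against Gna12/Gna13 cells at -0.48 ± 0.332 (limma adjusted p = 0.718 and 0.452).

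**Figure D2:**
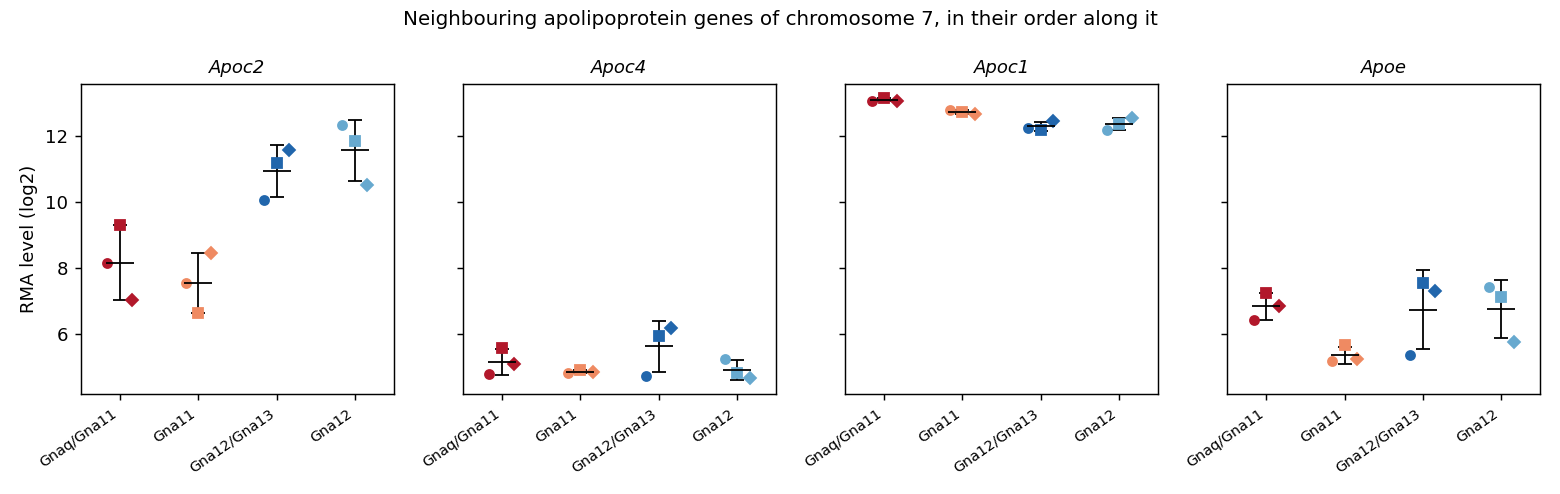
Level (vertical axis, log2 RMA level, shared) of Apoc2, Apoc4, Apoc1 and Apoe, drawn in their order along chromosome 7, in the 12 arrays by genotype. Circles, squares and diamonds are replicates 1, 2 and 3, dashes are means and bars SD (n = 3); Apoc2 is higher in the arrays lacking Gna12, Apoc1 is higher in Gnaq/Gna11 than in Gna12/Gna13 arrays, and Apoe has its lowest mean in the Gna11 arrays.

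Lpl, the lipase that Apoc2 activates, read 10.15, 11.09 and 10.44 in Gna12 arrays, against 8.09, 7.78 and 9.89 in Gna11 arrays. The groups did not overlap, with a difference of 1.98 ± 0.524 (SE), or 3.94-fold. It read 9.73, 10.01 and 9.72 in Gnaq/Gna11 arrays, which overlapped with Gna11 through Gna11 replicate 3, and 9.56, 10.87 and 11.06 in Gna12/Gna13 arrays. The second Lpl probe set was 1.26 higher in Gna12 than in Gna11 cells, again without overlap, and differed by 0.60 between Gnaq/Gna11 and Gna11 cells, which overlapped.

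Of the cholesterol exporters, Abcg1 read 10.28, 10.79 and 10.16 in Gna12 arrays, against 9.15, 8.45 and 9.72 in Gna11 arrays, a difference of 1.30 ± 0.313 (SE) with no overlap. In Gnaq/Gna11 arrays it read 9.52, 9.62 and 9.87, which overlapped with Gna11, and in Gna12/Gna13 arrays 9.63, 10.38 and 10.37. Abca1 read 7.92, 7.63 and 7.22 in Gnaq/Gna11, 7.46, 5.80 and 7.89 in Gna11, 7.62, 7.94 and 8.29 in Gna12/Gna13 and 7.75, 8.02 and 7.80 in Gna12 arrays. No comparison of 2 groups was free of overlap for it, and its lowest array, Gna11 replicate 2, was also the lowest of the 12 for Trem2, Apoc2, Lpl, Abcg1, Fabp4 and Plin2. The dimmer probe sets of both genes read 3.05 to 5.12 and 3.21 to 3.62, and 1 of each was lower in Gna12/Gna13 than in Gna12 arrays without overlap, by 0.35 for Abca1 and 0.21 for Abcg1. These lay above the array median in only 1 and 0 of the 12 arrays, and values under it carry little information. Of all genes, 11.3% had no overlap in this comparison in their brightest probe set.

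Fabp4, the fatty acid chaperone of fat cells and macrophages, read 7.15, 7.82 and 8.53 in Gna12 arrays, against 5.31, 4.97 and 5.96 in Gna11 arrays, a difference of 2.42 ± 0.482 (SE), or 5.36-fold. It read 6.57, 7.02 and 6.34 in Gnaq/Gna11 arrays and 7.10, 8.87 and 8.68 in Gna12/Gna13 arrays. The Gnaq/Gna11 arrays thus lay above all Gna11 arrays and below all arrays lacking Gna12, while Gna12/Gna13 overlapped with Gna12. Its other probe sets differed between Gna12 and Gna11 cells by 2.38, 0.88 and, in the dimmest, 0.061.

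Fabp5, a chaperone of epithelium and macrophages, spanned a much smaller range. Its brighter probe set read 12.58, 12.46 and 12.50 in Gnaq/Gna11 arrays, against 12.14, 12.27 and 12.32 in Gna12/Gna13 arrays, a difference of 0.27 ± 0.0938 (SE) with no overlap. In Gna11 arrays it read 12.45, 12.47 and 12.38, and in Gna12 arrays 11.97, 12.23 and 12.41. Between Gnaq/Gna11 and Gna11 arrays the brighter probe set differed by 0.076 and overlapped, while the second was 0.41 higher without overlap. Plin2, the lipid droplet coat, read 12.60, 12.62 and 12.61 in Gnaq/Gna11 arrays, against 12.35, 12.32 and 12.42 in Gna11 arrays. This difference of 0.25 ± 0.0596 (SE), or 1.19-fold, was small, and the arrays of each group lay close together without overlap. In Gna12/Gna13 arrays Plin2 read 12.33, 12.56 and 12.51, and in Gna12 arrays 12.48, 12.59 and 12.51.

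In Gnaq/Gna11 against Gna11 cells the differences were positive for all 10 genes, with a median of 0.93 against -0.028 over all 18193 genes. The limma fit over all genes put 2 of the 10 past an adjusted p of 0.05 as higher (Gpnmb and Trem2), beside 1.17% of all genes, and 0 lower, beside 0.676%. In 5 (Gpnmb, Trem2, Apoe, Fabp4 and Plin2) the groups did not overlap and the double knockout was higher, beside 9.87% of all genes. Because this comparison may have brought genes into the set, nothing is read from these counts. The count of 2 was 0 without replicate 1 of Gna11 or replicate 2 or 3 of Gnaq/Gna11, and 1 without replicate 2 of Gna11 or replicate 1 of Gnaq/Gna11. It stayed 2 without replicate 3 of Gna11, but with another member in place of Trem2. Trem2 was called in none of these 6 fits. Over 15 fits with other settings, these 6 included, Gpnmb was called in 10 and Trem2 in 5. Without replicate 2 of Gna11 the median of the 10 genes was 0.53.

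In Gna12 against Gna11 cells the differences were positive for 9 of the 10 genes, all but Fabp5, with a median of 1.35 against -0.062 over all genes. The fit put 2 of the 10 (Apoc2 and Fabp4) past the threshold as higher, beside 1.74% of all genes, and 0 lower, beside 1.08%. The groups did not overlap for 7 genes that were higher in Gna12 cells (Gpnmb, Apoc2, Apoe, Lpl, Abcg1, Fabp4 and Plin2), beside 10.3% of all genes. The Gna11 arrays are shared with the previous comparison, and nothing is read from these counts either, since Apoc2 names the set. The count of 2 was 4 without Gna11 replicate 3, 0 without Gna12 replicate 2 and 1 without any 1 of the other 4 arrays, and it was 0 in a fit to the 6 arrays alone.

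Between the double knockouts, Gnaq/Gna11 minus Gna12/Gna13, the differences were positive for 5 genes and negative for 5, with a median of -0.13 against 0.042 over all genes. Gpnmb, Trem2, Fabp5 and Plin2 were higher in Gnaq/Gna11 cells without overlap, beside 15.5% of all genes, and Apoc2 and Fabp4 were lower without overlap, beside 12.9%. The Gpnmb difference was 1.75 ± 0.588, that of Trem2 0.96 ± 0.339 and that of Fabp4 -1.58 ± 0.482 (SE). The fit put 1 of the 10 (Apoc2) past the threshold as lower, beside 3.39% of all genes, and 0 as higher, beside 2.7%, and nothing is read from this count for the same reason. It was 0 without replicate 1 or 3 of Gnaq/Gna11 or replicate 2 or 3 of Gna12/Gna13, and 2 without replicate 1 of Gna12/Gna13.

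**Figure D3:**
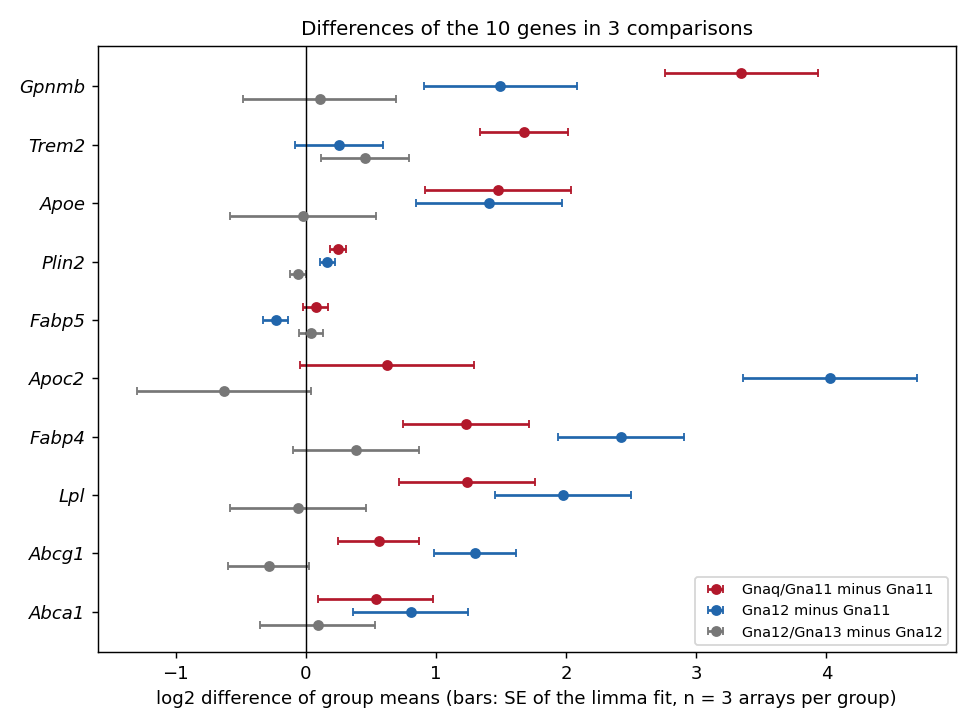
Log2 difference of group means (horizontal axis) for each of the 10 genes (vertical axis) in 3 comparisons, Gnaq/Gna11 minus Gna11 (red), Gna12 minus Gna11 (blue) and Gna12/Gna13 minus Gna12 (grey). Bars are the SE of the limma fit (n = 3 arrays per group), the red and blue comparisons share the Gna11 arrays, and the grey differences lie between -0.63 and 0.45.

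In Gna12/Gna13 against Gna12 cells none of the 10 genes was called. For Apoc2, and perhaps for others such as Fabp4, the values here are a description, since these arrays may have led to their choice. The differences were positive for 5 and negative for 5, with a median of 0.0087 against -0.00034 over all genes, and no gene had groups without overlap in its brightest probe set, beside 11.3% of all genes. Limma called 0 of 18193 genes, 0% of those tested, its adjusted p was 1.000 for each of the 10 genes, and the smallest over all genes was 0.128. At an unadjusted p under 0.05 there were 0 of the 10 genes and 820 of all genes. The 95% interval ran from -1.19 to 1.40 around 0.11 for Gpnmb, from -0.29 to 1.20 around 0.45 for Trem2 and from -2.09 to 0.84 around -0.63 for Apoc2, so sizeable differences in either direction lie within them. For Fabp4 it ran from -0.68 to 1.44 around 0.38, for Lpl from -1.21 to 1.09 around -0.061 and for Apoe from -1.25 to 1.21 around -0.021. Those of Fabp5, from -0.17 to 0.24 around 0.039, and Plin2, from -0.19 to 0.071 around -0.059, were narrower. Replicate 1 of the Gna12/Gna13 cells was the lowest array of its group for all 10 genes. Without it the differences were 0.84 for Gpnmb, 0.93 for Trem2, 0.94 for Fabp4 and 0.67 for Apoe, and none was called.

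The difference between these losses, Gnaq/Gna11 minus Gna11 less Gna12/Gna13 minus Gna12, was positive for all 10 genes, with a median of 1.03 against -0.022 over all genes. None passed the threshold, beside 0.0715% of all genes, and the values were 3.24 ± 0.832 for Gpnmb, 1.22 ± 0.479 for Trem2 and 0.31 ± 0.0842 for Plin2 (SE). The Gnaq/Gna11 and Gna11 arrays enter this difference too.

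Other genes of lipid-laden macrophages were described from a list written with results of these data known. The same holds for every gene list here, so adjusted p-values of list genes, also of Apoc1 and Apoc4 above, are a description. Lists share genes such as Ctsd, Ctsb, Cd68, Lipa, Angptl4, Msr1 and Fabp1, so their counts are not separate. Of all genes, 1.17% rose and 0.676% fell in Gnaq/Gna11 and 1.74% rose and 1.08% fell in Gna12 against Gna11 cells. In Gnaq/Gna11 against Gna12/Gna13 cells 2.7% rose and 3.39% fell. Of 27 other genes of lipid-laden macrophages, 9 rose and 0 fell in Gnaq/Gna11 against Gna11 cells, with a median of 0.73. In Gna12 against Gna11 cells 9 rose and 0 fell, with a median of 0.59. The protease Ctsk rose by 2.65 ± 0.510 and 2.55 ± 0.510 in these comparisons (SE, limma adjusted p = 0.0295 and 0.0296). The macrophage elastase Mmp12 rose by 2.33 ± 0.336 in Gnaq/Gna11 against Gna11 cells and by 1.57 ± 0.336 in Gnaq/Gna11 against Gna12/Gna13 cells (limma adjusted p = 0.00844 and 0.0221). Cd68, a lysosomal membrane protein, rose by 1.63 ± 0.346 in Gnaq/Gna11 and 1.47 ± 0.346 in Gna12 against Gna11 cells, and the fungal receptor Clec7a by 1.67 ± 0.327 in Gna12 against Gna11 cells (limma adjusted p = 0.0406, 0.0489 and 0.0281).

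Of 19 MITF family and lysosome genes 3 rose and 0 fell in Gnaq/Gna11 against Gna11 cells (median 0.25), and 5 rose and 0 fell in Gna12 against Gna11 cells (median 0.33). The galactosidase Gla rose by 1.85 ± 0.393 and 1.84 ± 0.393, and the protease Ctsd by 0.91 ± 0.173 and 0.81 ± 0.173 (SE, limma adjusted p = 0.0400, 0.0375, 0.0280 and 0.0375). The autophagy receptor Sqstm1 was lower in Gnaq/Gna11 than in Gna12/Gna13 cells, at -1.11 ± 0.164 (limma adjusted p = 0.00404). Of 17 TREM2 signalling genes 0 passed in Gnaq/Gna11 against Gna11 cells (median 0.51), where the adaptor Tyrobp averaged 12.8 ± 0.0311 in Gnaq/Gna11 and 12.7 ± 0.0879 in Gna11 cells (SD, n = 3 each). In Gna12 against Gna11 cells Trem1, a related receptor, rose by 2.53 ± 0.548 and the phospholipase Plcg2 by 0.91 ± 0.162 (limma adjusted p = 0.0386 and 0.0197), and the other 15 did not pass.

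The LXR pathway genes beyond the members did not pass in either comparison with Gna11 cells (0 of 14, medians 0.14 and 0.10). In Gnaq/Gna11 against Gna12/Gna13 cells 2 of the 14 rose, Apoc1, given above, and the fatty acid synthase Fasn by 0.81 ± 0.172 (SE, limma adjusted p = 0.0212). LXR alpha itself, Nr1h3, differed by 0.86 ± 0.301 and 0.95 ± 0.301 in the comparisons with Gna11 cells without passing (SE, limma adjusted p = 0.187 and 0.108). Of 27 PPAR pathway and lipid droplet genes, Angptl4, a secreted inhibitor of Lpl, rose by 1.08 ± 0.208 and the fatty acid carrier Fabp1 was lower, at -2.53 ± 0.485, in Gnaq/Gna11 against Gna11 cells (limma adjusted p = 0.0296 and 0.0292). In Gna12 against Gna11 cells 3 of the 27 rose, Pdk4, a brake on glucose oxidation, by 2.17 ± 0.391, the droplet protein Hilpda by 1.78 ± 0.391 and the lysosomal lipase Lipa by 1.40 ± 0.279 (limma adjusted p = 0.0205, 0.0400 and 0.0296). In Gnaq/Gna11 against Gna12/Gna13 cells 6 fell and 2 rose, with Fabp1 at -3.41 ± 0.485 and Pdk4 at -1.96 ± 0.391 (limma adjusted p = 0.00345 and 0.0157). Of 19 lipoprotein receptors and lipase partners, the scavenger receptor Msr1 rose by 1.85 ± 0.301 beside Angptl4 in Gnaq/Gna11 against Gna11 cells, and Lrp1, a receptor for Apoe, by 1.38 ± 0.320 in Gna12 against Gna11 cells (limma adjusted p = 0.0157 and 0.0467). No gene of these lists passed between Gna12/Gna13 and Gna12 cells.

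Genes with a profile like that of a member were sought for Gpnmb and Apoc2 among 12012 genes, by Pearson's r over the 12 arrays, which share their genotype groups. For Gpnmb these were Zbp1, Kcnn4, Dhcr7, Sting1 and Mcm5, with r of 0.969, 0.966, 0.949, 0.949 and 0.941. For Apoc2 they were Rap2b, Mapkapk2, Snx10, Clic4 and Lrrc8d, with r of 0.957, 0.942, 0.938, 0.937 and 0.937. No gene was on both lists.

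Several lists of cell type markers differed between the genotypes too, and their part in the values of the 10 genes was not tested. The mean of 17 macrophage markers was 9.04 to 9.26 in Gnaq/Gna11, 7.30 to 7.87 in Gna11, 8.08 to 9.25 in Gna12/Gna13 and 8.47 to 9.24 in Gna12 arrays. Of these 17, 6 rose in Gnaq/Gna11 against Gna11 cells (median 1.59, 16 positive), among them Aif1 by 3.56 ± 0.583 and C1qc by 3.22 ± 0.680. Of the 11 that did not pass, Csf1r differed by 0.13, Mertk by 0.15, Lyz2 by 0.034 and Itgam by -0.21. In Gna12 against Gna11 cells 4 of the 17 rose (median 1.43, 15 positive). Markers of alveolar macrophages had another order. The mean of 13 was 7.70 to 8.15 in Gnaq/Gna11 and 7.31 to 8.45 in Gna11 arrays, which overlapped, and 8.24 to 9.30 in Gna12/Gna13 and 8.68 to 9.30 in Gna12 arrays. Of these 13, 0 rose and 1 fell (Fabp1) in Gnaq/Gna11 against Gna11 cells (median 0.30), and 0 passed in Gna12 against Gna11 cells, where all 13 differences were positive (median 1.51). In Gnaq/Gna11 against Gna12/Gna13 cells 3 of these 13 fell, Fabp1, Siglecf at -1.73 ± 0.410 and Cidec at -1.44 ± 0.381, and 0 rose. Of 12 dendritic cell markers 6 rose in Gnaq/Gna11 against Gna11 cells (median 0.60, 10 differences positive). In Gna12 against Gna11 cells 6 rose as well (median 0.91, 8 positive), and Ccr7 rose by 3.19 ± 0.321 and 2.25 ± 0.321. Flt3, Zbtb46, Itgae, Xcr1 and Cd209a passed in neither, and Xcr1 and Cd209a had negative differences in both. Of 10 fibroblast markers 2 rose in Gnaq/Gna11 against Gna11 cells, Col3a1 by 2.096 ± 0.335 and Col1a1 by 1.57 ± 0.262, and 5 of the 10 differences were negative (median -0.010). Of 14 type II markers 7 rose and 0 fell in Gnaq/Gna11 against Gna12/Gna13 cells (median 0.69, all 14 positive), with the phosphate transporter Slc34a2 at 1.60 ± 0.200 and the lipid transporter Abca3 at 0.91 ± 0.154 (SE, limma adjusted p = 0.00206 and 0.00774). In Gna12 against Gna11 cells 1 of the 14 fell, Slc34a2 at -0.85 ± 0.200 (limma adjusted p = 0.0480), and 12 differences were negative (median -0.40), while 0 passed in Gnaq/Gna11 against Gna11 cells (median 0.24). Adipocyte markers were low, with 2 to 4 of 6 above the median of an array and Adipoq at 3.23 to 4.10.

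**Figure D4:**
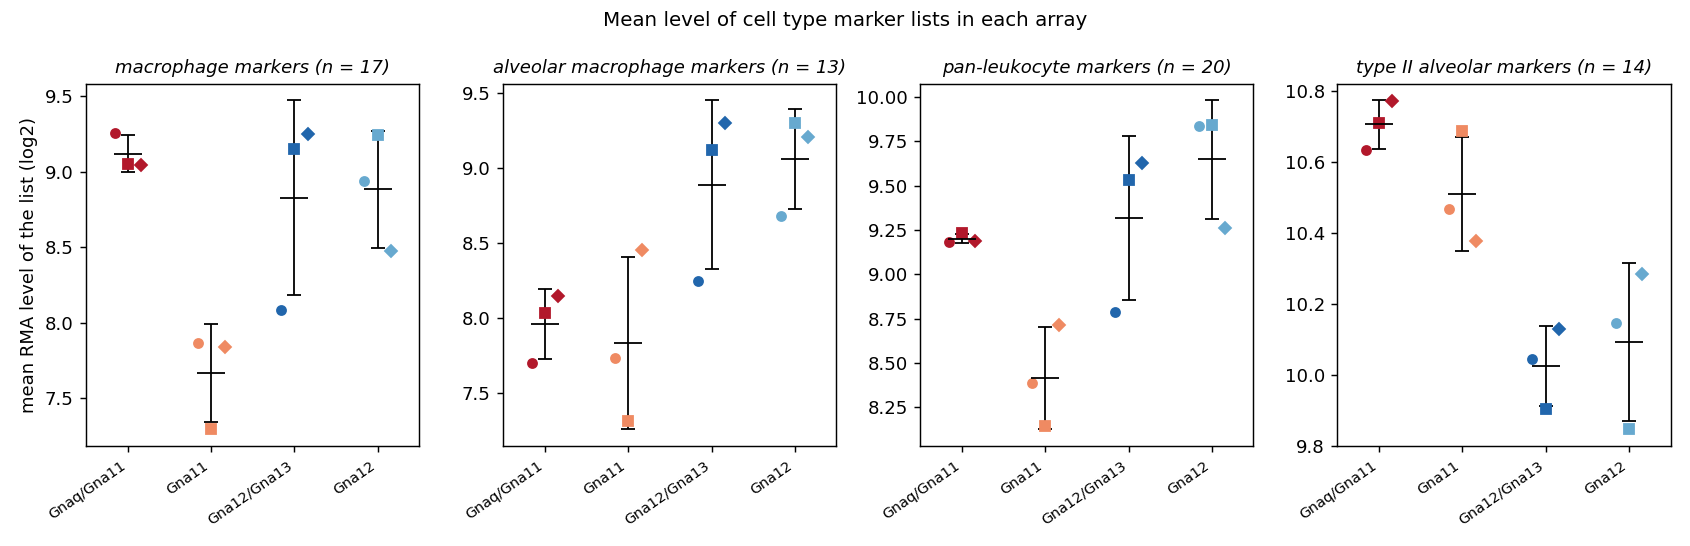
Mean log2 RMA level of 4 marker lists (vertical axes, own scale per panel) in each array, by genotype; circles, squares and diamonds are replicates 1, 2 and 3, dashes are means and bars SD (n = 3). Macrophage markers are lowest in the Gna11 arrays, alveolar macrophage markers are lower in the Gnaq/Gna11 than in the Gna12 arrays, and replicate 1 of Gna12/Gna13 is the lowest of its group for macrophage, alveolar macrophage and pan-leukocyte markers.

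The mean of 20 pan-leukocyte markers was 9.20 ± 0.0258 in Gnaq/Gna11, 8.41 ± 0.287 in Gna11, 9.32 ± 0.461 in Gna12/Gna13 and 9.65 ± 0.335 in Gna12 cells (SD, n = 3). Of the 20, 1 rose in Gnaq/Gna11 against Gna11 cells (median 0.72, 19 positive), where Ptprc differed by -0.14 ± 0.299 (SE) without passing. In Gna12 against Gna11 cells 8 rose (median 1.24, all 20 positive), and 0 fell in either comparison. The pan-leukocyte mean of each Gna11 array (8.14 to 8.71) lay below that of every other array (8.79 to 9.84). A fit with it as a covariate thus cannot cleanly separate it from genotype in comparisons with Gna11 cells. In that fit the median difference of the 10 genes was 0.027 in Gnaq/Gna11 against Gna11 and -0.10 in Gna12 against Gna11 cells. Of the 10, 0 were called in either, beside 5 and 0 of all 18193 genes, and nothing is read from this count. With the pan-leukocyte covariate the Gpnmb difference was 2.42 and that of Trem2 0.87 in Gnaq/Gna11 against Gna11 cells. The Apoc2 difference was 1.15 in Gna12 against Gna11 cells. The gap between Gapdh probe sets at the 3' and 5' ends, which broken RNA can widen, was 3.14 ± 0.124 in Gnaq/Gna11, 3.70 ± 0.294 in Gna11, 3.15 ± 0.174 in Gna12/Gna13 and 3.00 ± 0.298 in Gna12 cells. What set its size in these amplified samples was not tested. This gap was larger in every Gna11 array (3.46 to 4.03) than in every other array (2.67 to 3.33), so the same limit holds. With the gap as a covariate the medians were 0.26 and 0.46. Again 0 of the 10 were called in either comparison, beside 3 and 0 of all genes. The differences were then 2.35 for Gpnmb and 1.37 for Trem2 in Gnaq/Gna11 against Gna11 cells, and 3.17 for Apoc2 and 2.00 for Fabp4 in Gna12 against Gna11 cells. The Apoc2 difference between the double knockouts was -2.50 with the pan-leukocyte and -2.78 with the Gapdh covariate.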

How the data were processed

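RNA of 12 samples of type II alveolar epithelial cells was measured on Affymetrix mouse arrays. The deposited log2 values per probe set were made by the authors with RMA, per the submitters' processing notes, which corrects background, normalizes between arrays and summarises probes. Neither version nor log base is stated, and base 2 was assumed because values run from 2.13 to 14.1. Precision is limited by 3 arrays per group.

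Of 45101 probe sets, 64 were controls, 34945 had 1 gene in the platform annotation, 932 several and 9160 none. Symbols were updated by gene number with RefSeq (34741 matched). The brightest probe set on average stood for a gene. Group means were fitted with limma 3.58.1 (R 4.3.3, lmFit, eBayes with trend, 8 residual and 3.19 prior degrees of freedom) to all 12 arrays, two-sided, with Benjamini-Hochberg adjustment over 18193 genes, called under 0.05. The fit was tested on simulated data.

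The members, lists and tests were chosen with earlier results of these data known. All members were named, and of each other list up to 4 genes per comparison, called ones first by size. Tyrobp, Apoc4, Adipoq, Ptprc and Sftpc were named as markers or neighbours after their values were seen. So were the macrophage and dendritic cell markers given as not passing. The genes most like Gpnmb and Apoc2 were the 5 with the highest Pearson's r among genes whose highest group mean reached 5.08, the median probe set level without controls. Alternatives were the mean of a gene's probe sets, single probe sets, a filter at the median level, no trend, array weights, the 6 arrays compared, a replicate block, centred arrays, 2 covariates and leaving out each array. Replicate numbers were not taken as pairs, since the labels tie no number to an animal and deviations of arrays with the same number correlated at -0.01 to 0.27.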

Additional observations from a re-analysis of the deposited data

How the results depend on the processing

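Leaving out 1 array at a time gave 102 to 375 called genes in Gnaq/Gna11 minus Gna11, 0 to 3 in Gna12/Gna13 minus Gna12, 0 to 40 in the difference of differences, 62 to 736 in Gna12 minus Gna11 and 369 to 842 in Gnaq/Gna11 minus Gna12/Gna13. In the same order, the members called were 0 to 2, 0 to 0, 0 to 0, 0 to 4 and 0 to 2, and their medians ran from 0.53 to 1.25, -0.18 to 0.33, 0.67 to 1.31, 1.17 to 1.48 and -0.56 to -0.013. In Gnaq/Gna11 minus Gna11, where 335 genes and 2 members were called, array weights gave 174 genes and 1 member, and the 6 arrays alone 139 genes. The mean of the probe sets gave 1 member, single probe sets 1 member and a median of 0.48. The pan-leukocyte covariate gave 5 genes, 0 members and a median of 0.027, and the Gapdh covariate 3 genes, 0 members and 0.26. In Gna12/Gna13 minus Gna12 the median was 0.47 with the pan-leukocyte covariate. In the difference of differences, where 13 genes were called, the mean of the probe sets gave 35 genes and a median of 0.55, the filter 43 genes, no trend 22, array weights 28, the pan-leukocyte covariate 1 gene and a median of -0.31, the Gapdh covariate 0 genes and 0.30, and single probe sets a median of 0.38. In Gna12 minus Gna11, where 513 genes and 2 members were called, the mean of the probe sets gave a median of 0.58 and single probe sets 0.56. Both covariates gave 0 genes and 0 members there, with medians of -0.10 (pan-leukocyte) and 0.46 (Gapdh), and the 6 arrays alone 22 genes and 0 members. In Gnaq/Gna11 minus Gna12/Gna13, where 1 member was called, array weights and the pan-leukocyte covariate gave 2 each and single probe sets 0. The cause of these shifts was not tested, apart from the smaller number of arrays in some fits. With a replicate block 309, 0, 16, 445 and 1090 genes and 2, 0, 0, 3 and 1 members were called in the order above, and Apoc2 lost its call in the last comparison.

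Uncalled differences of Gna12/Gna13 minus Gna12 changed sign in some fits. Lpl was 0.051 with array weights, 0.53 with the pan-leukocyte and 0.23 with the Gapdh covariate, and Apoe 0.62 and 0.21 with these covariates. Apoc2 was 0.14 and Abcg1 0.079 with the pan-leukocyte covariate. With 1 array left out Gpnmb ran from -0.39 to 0.84, Apoe from -0.52 to 0.67, Lpl from -0.34 to 0.41, Fabp5 from -0.078 to 0.14, Plin2 from -0.11 to 0.011 and Abca1 from -0.075 to 0.26. Probe sets under the array median carry little information, and 3 arrays per group limit every value.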
